A study of Mus musculus with 32 samples.

Results

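Transcript abundance was compared between 6 h and 12 h of 4-hydroxytamoxifen in Ebf1-deficient fetal liver cells that carried Ebf1-ER, a form of the transcription factor Ebf1 that the drug activates. The comparison used 4 of the series' 32 arrays, 2 at each time, and took its estimate of spread from all 8 arrays of that time course. The cells came from Ebf1-/- C57BL/6J mouse fetuses of E14.5 and grew on OP9 stromal cells with KIT ligand, FLT3L and interleukin-7, each at 10 ng/mL. Cells infected with the retroviral Ebf1-ER vector were sorted by its GFP marker and received 0.1 uM 4-hydroxytamoxifen, and RNA was taken at 0, 6, 12 and 24 h. All 8 arrays therefore share the Ebf1 deletion, the viral vector, the stroma and the cytokines, and both groups compared here had received tamoxifen. The 8 arrays hold no cells given tamoxifen without Ebf1-ER, and none kept without tamoxifen for 6 h or 12 h. Ebf1-ER activity, the drug itself and time in culture therefore cannot be told apart. The labels number the arrays of each time 1 and 2 without saying whether they came from separate cultures, so the p-values reflect only how far these arrays differ within a time, and that spread may be technical. In bulk RNA of this kind, fewer cells of a type and less of a transcript per cell cannot be told apart.

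Ebf1 is required for the B lineage: without it, fetal liver progenitors stop before the pro-B stage. It opens and activates genes of the pre-B receptor, in which the surrogate light chain of Igll1 and Vpreb1 pairs with the heavy chain and the Cd79a and Cd79b chains carry the signal. An estrogen receptor fusion is held inactive until tamoxifen binds, so its activation needs no change in its transcript. Cells that enter the cell cycle express genes in an order: those for origin licensing and DNA synthesis come first, under E2F factors, and those for the spindle, the kinetochore and cytokinesis follow in G2 and mitosis.

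The deposited values are log2 values centred per probe set, so 0 is that probe set's median over the 8 arrays and a value of 1 lies 2-fold above it. They show differences between arrays and no expression level, so whether a marker is present at all could not be read. Changes below are log2 differences of 12 h minus 6 h with limma's standard error (SE, n = 2 and 2), and a gene with an adjusted p under 0.05 is called. The median absolute difference between the arrays of a time was 0.126 at 6 h and 0.111 at 12 h. Between a 6 h and a 12 h array it was 0.157 to 0.175. The arrays at 0 h stood apart from the others, at -64.8 and -63.5 on the main axis of variation (70.2% of the variance), where the other 6 arrays lay between 13.2 and 28.1.

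Between 6 h and 12 h, 63 of 89 mitotic genes, 19 of 33 genes of the replication fork and 19 of 34 genes of homologous recombination and the Fanconi pathway rose, against 1.50% of all genes. Igll1 of the pre-B receptor rose 2.05-fold, and the chemokine Ccl3 fell 3.87-fold, the largest decrease. Of 18194 genes, 435 were called between 6 h and 12 h (2.39%), 273 of them higher at 12 h (1.50%) and 162 lower (0.890%). The median size of the change was 0.81 among the genes called higher and 0.64 among those called lower. A change of at least 1 was seen in 89 higher and 17 lower genes. The median over all genes was -0.008, and 9432 changes were below 0. All 435 called genes had 12 h arrays that did not overlap the 6 h arrays, as had 8941 genes in all (49.1%). An unadjusted p under 0.05 was found in limma's fit for 3015 genes (16.6%), 1187 of them higher and 1828 lower. In 4 further fits 1 array of 6 h or 12 h was left out, which leaves 1 array at that time and raises the SE. Fewer genes then pass whichever array goes. A call lost in these fits, here and below, does not by itself show that a change rests on 1 array. The change of Igll1 was 0.99 to 1.09 in them and that of Cd24a 0.49 to 0.74. Of the 435, 76 kept their call in all 4 of these fits, 67 higher and 9 lower. Subtracting array medians gave 289 higher and 157 lower calls. Quantile normalisation gave 644 higher and 682 lower calls, with no gene called in opposite directions. It was run on centred values, which spanned -4.47 to 6.78 on 0 h array 1 but -1.76 to 1.77 on 6 h array 1. Giving such arrays a common distribution changes the size of differences, and the change of Igll1 went from 1.04 to 1.71. The quantile counts therefore cannot decide whether the balance between directions depends on scaling.

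**Figure D1:**
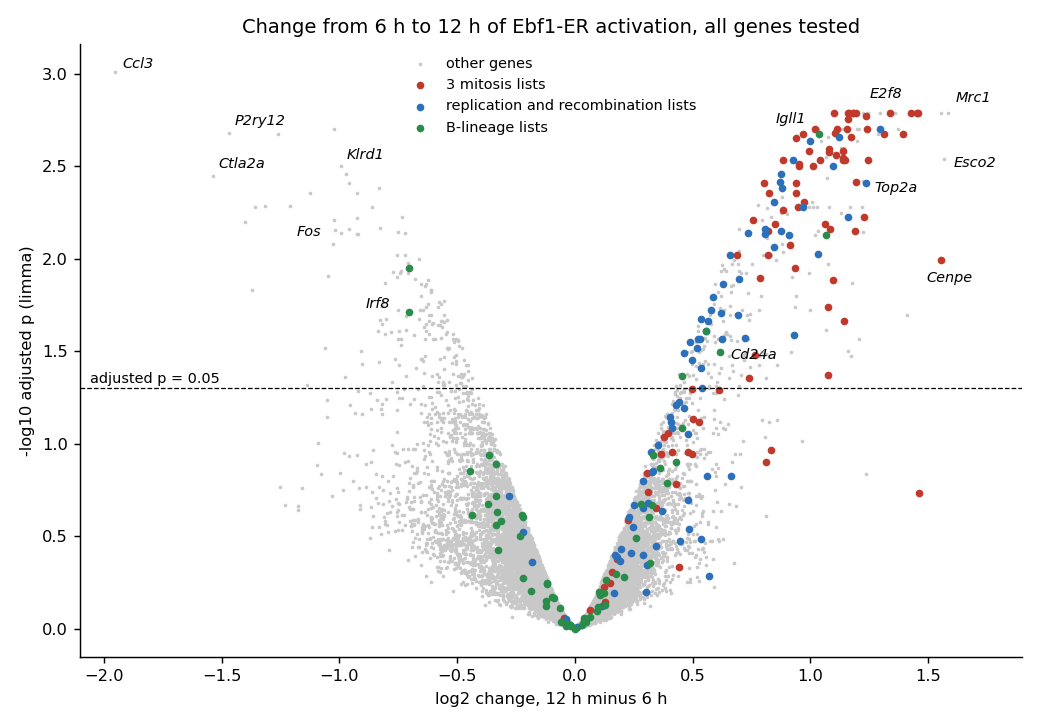
Each point is a gene, with its log2 change from 6 h to 12 h (12 h minus 6 h) on the x axis and -log10 of limma's adjusted p on the y axis. The dashed line marks an adjusted p of 0.05. Genes of the 3 mitosis lists (red) and of the replication and recombination lists (blue) lie almost wholly to the right of 0, while Ccl3, at -1.95, is the largest decrease.

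Genes of mitosis rose together. Of 89 measured genes on 3 lists of mitotic genes, 63 rose, against 1.50% of all genes, and none was lower, not even at an unadjusted p under 0.05, at which 81 were higher in limma's fit. The median change was 0.95. These genes are 0.489% of the genes tested and 23.1% of those called higher. Averaged over the 89 genes, the arrays lay at -0.63 and -0.68 at 6 h and at 0.22 and 0.22 at 12 h. By role, 18 of 27 genes of mitotic entry and the spindle checkpoint rose, with a median change of 1.02. Among genes of the spindle and cytokinesis 20 of 28 rose, and among those of the kinetochore and condensin 25 of 34, each with a median of 0.95. Without 12 h array 1 the 63 became 39. The spindle count of 20 fell to 13 without either 6 h array or 12 h array 2 and to 11 without 12 h array 1. The kinetochore count of 25 was 15 without 12 h array 1 and 12 without 12 h array 2.

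Aurkb, the kinase of the chromosomal passenger complex, was at -0.77 and -0.81 on the 6 h arrays and at 0.60 and 0.72 on the 12 h arrays. This is a 2.74-fold rise (log2 change 1.46 ± 0.11, adjusted p = 0.00162), seen in both of its probe sets. Its partner Cdca8, also called borealin, rose by 1.31 ± 0.11. Bub1, a spindle checkpoint kinase, went from -0.88 and -1.08 to 0.45 and 0.37 (1.39 ± 0.12, adjusted p = 0.00211). Plk1, the polo-like kinase of mitotic entry, went from -1.0 and -0.93 to 0.34 and 0.21, and rose 2.36-fold (1.24 ± 0.09). In each of these genes the arrays of a time lay closer together than the times lay apart.

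Motors and spindle assembly factors moved by similar amounts. Kif11, the kinesin that pushes spindle poles apart, was at -1.10 and -1.17 at 6 h and at 0.22 and 0.41 at 12 h, 2.74-fold higher (1.45 ± 0.10, adjusted p = 0.00162), in all 3 probe sets. Spag5, or astrin, which binds the spindle, rose by 1.34 ± 0.10, the chromosome motor Kif4 by 1.17 ± 0.09, and Tpx2, which activates Aurora A on the spindle, by 1.16 ± 0.09. At the kinetochore, Cenpe, the kinesin that carries chromosomes to the spindle equator, went from -1.24 and -1.79 to -0.01 and 0.09 (1.56 ± 0.21, adjusted p = 0.0102). Its 6 h arrays differed more than those of the genes above, and it was no longer called without 12 h array 1 (adjusted p = 0.0858) and without 12 h array 2 (0.102). Ska1, which couples kinetochores to microtubules, rose by 1.43 ± 0.10, the condensin subunit Ncapg by 1.24 ± 0.12 and Cenpi by 1.24 ± 0.10. All mitotic genes named here other than Cenpe stayed called whichever of the 4 arrays was left out.

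Of the 89 mitotic genes 26 were not called, though 88 of the 89 changes were above 0. Among the 26, Ccnb2, a cyclin B, changed by 0.31 ± 0.09 (adjusted p = 0.143), Pttg1, the securin that holds separase, by 0.18 ± 0.10 and Fzr1, an activator of the anaphase-promoting complex, by 0.15 ± 0.11. Cdc20, the other activator of that complex, changed by 0.50 ± 0.10 and just missed the threshold (adjusted p = 0.0506). Kif15 was the only member of these lists below 0, at -0.04 ± 0.10. Knl1, a kinetochore scaffold, changed by 1.46 ± 0.47 and was not called (adjusted p = 0.184): its 6 h arrays lay at -0.54 and -1.84. These 6 genes were picked after their values were seen, to show the range among uncalled members.

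Promoters of the mitotic genes that rose were read from the RefSeq promoter table (build GRCm38.p6), which gives 300 bases a promoter, 250 before to 50 after the start. Of the 63 genes, 51 were matched, with 57 promoters. The cell-cycle homology region, a short element of promoters that peak in G2 and mitosis, was searched as TTTGAA or TTCGAA on both strands, and the NF-Y box as CCAAT on both strands. The first was present in 68.4% of the 57 promoters, in 19.2% of all 32851 promoters of the table and in 15.1% of the 18110 promoters of all genes tested. The CCAAT box was present in 71.9%, against 37.4% of each background, and both together in 56.1%, against 7.52% and 5.97%. A match describes letters and not a bound site, and no letters outside the 300 bases were searched. The 4 promoters printed here show how close to the start the elements can lie. They are the largest risers among the mitotic genes with a lone promoter in the table and both motifs in the last 100 bases before the start, a rule that 8 of 46 genes with a lone promoter met. They are 5′ to 3′ in the direction of the gene, and capitals mark the CCAAT box and the homology region, each on whichever strand it was found.
Kif11 (chr19:37376282-37376381, plus strand): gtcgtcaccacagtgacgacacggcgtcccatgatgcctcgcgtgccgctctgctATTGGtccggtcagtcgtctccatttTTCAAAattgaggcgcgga
Espl1 (chr15:102296193-102296292, plus strand): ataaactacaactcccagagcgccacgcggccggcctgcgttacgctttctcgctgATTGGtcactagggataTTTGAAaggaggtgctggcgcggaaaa
Cenpn (chr8:116921640-116921739, plus strand): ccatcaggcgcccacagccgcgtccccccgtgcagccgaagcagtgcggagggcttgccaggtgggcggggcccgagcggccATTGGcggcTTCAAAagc
Kif22 (chr7:127042421-127042520, minus strand): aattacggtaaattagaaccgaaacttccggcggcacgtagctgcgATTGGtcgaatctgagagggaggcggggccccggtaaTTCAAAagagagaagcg
In all 4 the CCAAT box lies upstream of the homology region, with 21 bases between them in Kif11, 12 in Espl1, 4 in Cenpn and 32 in Kif22. Espl1, the separase that cuts cohesin, rose by 1.20 ± 0.09. Cenpn, which binds the centromeric histone, rose by 1.18 ± 0.08, and Kif22, a motor on chromosome arms, by 1.15 ± 0.11. These 3 also stayed called whichever of the 4 arrays was left out.

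The mitotic lists had not risen in the step before. From 0 h to 6 h, in which 35.1% of all genes were called, 44 of the 89 fell and 10 rose, with a median change of -0.39. From 12 h to 24 h, in which 4.16% of all genes were called, 40 rose and 1 fell, with a median of 0.48. The 3 steps share the 6 h and 12 h arrays, so they are given side by side only. Mki67, the proliferation antigen, fell before 6 h and rose from 6 h to 12 h, and its change after 12 h was not called. It was at -1.39 and -1.47 at 6 h and at 0.18 and 0.07 at 12 h. It had changed by -1.32 in the step before, rose by 1.56 ± 0.11 from 6 h to 12 h and changed by 0.19 in the step after (adjusted p = 0.429). Cenpe (-1.39, then 1.56) and Kif11 (-0.89, then 1.45) had the same signs, whereas Aurkb changed by -0.07 before 6 h and Ncapg by 0.26.

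**Figure D2:**
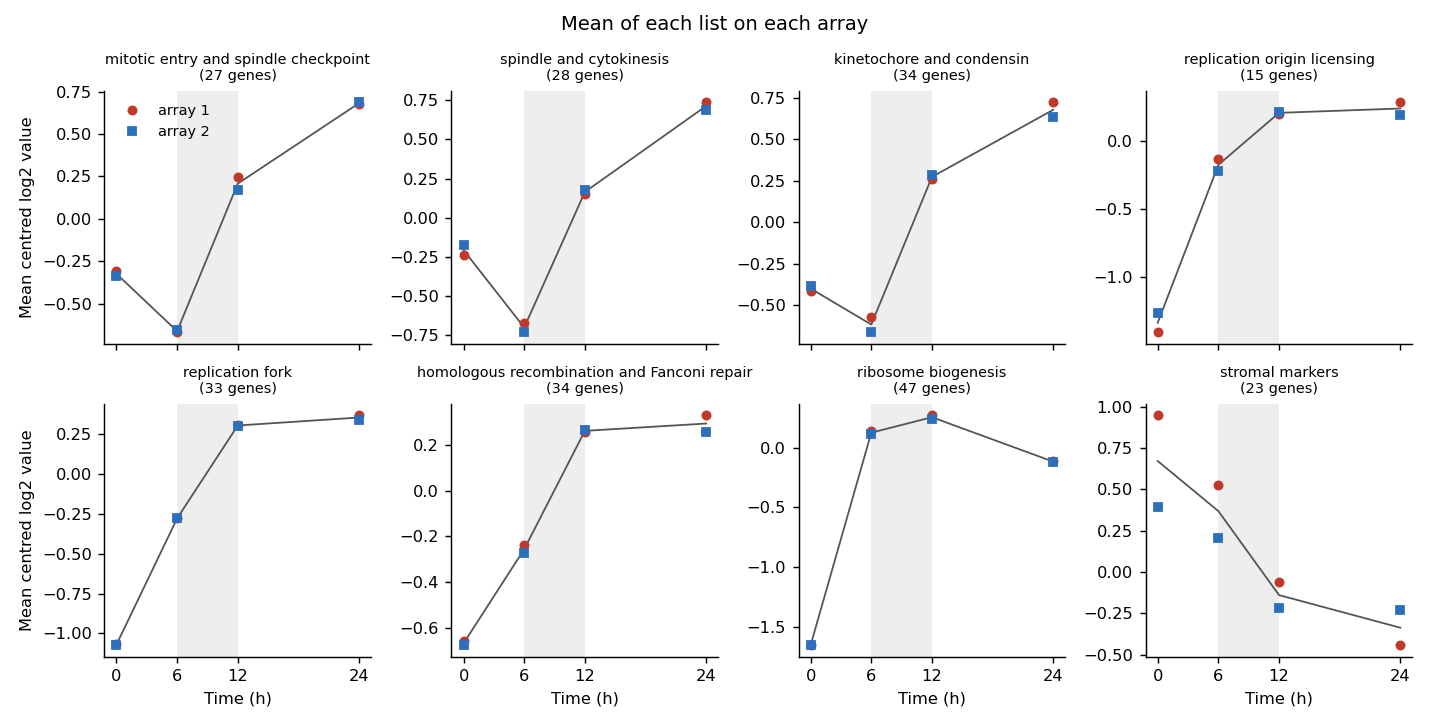
Each panel plots, for 8 gene lists, the mean centred log2 value of the list on each array (red circles array 1, blue squares array 2) against hours of tamoxifen, with a line through the means of each time and the interval from 6 h to 12 h shaded. The y axes differ between panels. The 3 mitotic lists have their lowest values at 6 h, the replication and repair lists rise in both early steps and flatten after 12 h, and the stromal marker list goes down.

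Genes of the replication fork rose, while most genes of origin licensing did not pass the test in this step. Of 33 fork genes, 19 rose and none was lower at an unadjusted p under 0.05 in limma's fit, with a median change of 0.54. The 19 became fewer whichever of the 4 arrays was left out, with 1 array then at that time. With the spread of the 4 arrays of 6 h and 12 h alone the count was 10. It was also 10 with the spread taken without 24 h array 2. Top2a, the topoisomerase that untangles sister chromatids, was at -0.45 and -0.80 at 6 h and at 0.59 and 0.62 at 12 h, and rose 2.35-fold (1.23 ± 0.13, adjusted p = 0.00391). Clspn, the claspin adaptor that travels with the fork, went from -0.49 and -0.47 to 0.56 and 0.47 (1.00 ± 0.09, adjusted p = 0.0023). Both had arrays that did not overlap. Mcm10, which activates the helicase, rose by 0.97 ± 0.11 in 1 of 3 probe sets, and the primase subunit Prim2 by 0.93 ± 0.15. The call of Clspn held whichever of the 4 arrays was left out. That of Top2a was lost without 12 h array 2 (adjusted p = 0.0529). Mcm10 lost it without 12 h array 1 (0.0605) and array 2 (0.0581), and with the mean of its probe sets (0.102). Prim2 lost it without 6 h array 1 (0.149), 6 h array 2 (0.116) and 12 h array 2 (0.122).

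Among the 15 licensing genes, which load the helicase before S phase, 2 rose (13.3%, against 1.50% of all genes), with a median change of 0.43. At an unadjusted p under 0.05 in limma's fit 10 were higher, as were 1187 of all 18194 genes. The median had been 1.17 in the step before, in which 14 of the 15 were called higher, as were 3391 of all 18194 genes. Cdc6, the loading factor, rose by 0.66 ± 0.09 (adjusted p = 0.00953) after a change of 1.87 before 6 h. Gmnn, geminin, the inhibitor of licensing, rose by 0.63 ± 0.09 (adjusted p = 0.0136). Both calls were lost whichever of the 4 arrays was left out (adjusted p 0.0624 to 0.0956 for Cdc6 and 0.0875 to 0.132 for Gmnn).

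Of 20 enzymes of nucleotide synthesis, 5 rose (25.0%, against 1.50% of all genes), with a median of 0.32 over the list. The 4 largest rises were in enzymes of deoxynucleotide supply. Tk1, thymidine kinase, went from -0.65 and -0.53 to 0.73 and 0.53, a 2.33-fold rise (1.22 ± 0.14, adjusted p = 0.00523). Rrm2, the regulatory subunit of ribonucleotide reductase, went from -0.64 and -0.48 to 0.54 and 0.48 (1.07 ± 0.10, adjusted p = 0.00283) in all 3 probe sets. The large subunit Rrm1 rose by 0.74 ± 0.11 and Tyms, thymidylate synthase, by 0.74 ± 0.12. The count of 5 fell to 2 without either 6 h array or 12 h array 2 and to 1 without 12 h array 1. Rrm2 kept its call in those 4 fits, Tk1 lost it without 12 h array 1 (adjusted p = 0.0597), and Rrm1 (0.100 to 0.165) and Tyms (0.120 to 0.201) lost it in each. In the step before, 19 of the 20 had been called higher, as had 3391 of all 18194 genes. The median of the list was 1.80 in that step.

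Of 26 genes for cyclins and the E2F and Rb families, 6 rose (23.1%, against 1.50% of all genes) and none fell. At an unadjusted p under 0.05 in limma's fit 12 were higher and 2 lower. The largest rises were in E2F members. E2f8 was at -0.66 and -0.63 at 6 h and at 0.70 and 0.73 at 12 h (1.36 ± 0.08, adjusted p = 0.00162). Only 1 of its 2 probe sets was called, and the other changed by 0.04. The fellow repressor E2f7 rose by 1.08 ± 0.10. Both act against the activating E2F factors. The activator E2f2 went from -0.89 and -0.77 to 0.34 and 0.41 (1.20 ± 0.10, adjusted p = 0.002). Ccne2, the cyclin of S phase entry, rose by 0.66 ± 0.11 after a change of 2.05 in the step before. The count of 6 became 3 whichever of the 4 arrays was left out. E2f8, E2f7 and E2f2 kept their calls in all 4 fits and Ccne2 in none of them (adjusted p 0.0864 to 0.191). Ccnf, cyclin F, which is on none of the lists, rose by 1.41 ± 0.22 with 12 h arrays at 0.39 and 1.09. Its call did not hold without 12 h array 2 (adjusted p = 0.0751), 6 h array 1 (0.0864) and 6 h array 2 (0.125).

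E2F motifs (TTTGGCGC, TTTCCCGC and TTCGCGCC on both strands) were in 36.4% of the 22 promoters of the called licensing and fork genes, in 2.05% of all promoters and in 2.98% of those of all genes tested. They were in 7.02% of the promoters of the called mitotic genes, 12.7% of those of all genes called higher and 0 of the 174 promoters of genes called lower. Of 13 called licensing and fork genes with a lone promoter, none had an E2F motif in the last 100 bases before the start. None is therefore printed. In the licensing and fork promoters the homology region was in 31.8% and the CCAAT box in 36.4%, the latter close to the 37.4% of all promoters.

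Genes of homologous recombination, which copies damaged DNA from the sister chromatid, and of the Fanconi pathway also rose. Of 34 measured genes 19 rose and none fell, with 2 lower at an unadjusted p under 0.05, and the median was 0.52. Fancd2, the protein that the Fanconi core complex ubiquitinates, was at -0.84 and -1.01 at 6 h and at 0.48 and 0.27 at 12 h. It rose 2.46-fold (1.30 ± 0.11, adjusted p = 0.002) in 3 of 4 probe sets. Rad54l, a motor of strand exchange, went from -0.59 and -0.49 to 0.49 and 0.66 (1.12 ± 0.10, adjusted p = 0.0022) in all 4 of its probe sets. Its paralogue Rad54b rose by 1.16 ± 0.13 and the helicase Brip1 by 1.10 ± 0.11. The calls of Fancd2, Rad54l and Brip1 held whichever of the 4 arrays was left out. Rad54b lost its call without 12 h array 1 (adjusted p = 0.0534), 12 h array 2 (0.0749) and 6 h array 2 (0.0506). The count of 19 became 9 without 6 h array 1, 6 without 6 h array 2, 3 without 12 h array 1 and 5 without 12 h array 2.

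The other repair lists held few calls. Of 19 genes of base excision and mismatch repair 1 rose, the glycosylase Neil3 (1.17 ± 0.21, adjusted p = 0.0335, lost whichever of the 4 arrays was left out). None of 16 DNA damage checkpoint genes was called by limma, and 5 were higher and none lower at an unadjusted p under 0.05. Of all 18194 genes 1187 were higher and 1828 lower at that p. None of 10 genes of non-homologous end joining was called, and 2 were higher and none lower at that p. In the checkpoint list all 16 changes were above 0, from 0.04 to 0.47.

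Of 13 measured histone genes and histone-handling genes 5 rose (38.5%, against 1.50% of all genes) and none fell. At an unadjusted p under 0.05 in limma's fit 2 were lower. Asf1b, a histone chaperone, went from -0.53 and -0.35 to 0.35 and 0.40 (0.81 ± 0.10, adjusted p = 0.00775). H2ax, the variant marked at DNA breaks, rose by 0.66 ± 0.10. The assembly factor Chaf1b rose by 0.62 ± 0.11 in 1 of 2 probe sets and Slbp, which binds histone mRNA, by 0.54 ± 0.10 in 1 of 3. With the mean of its probe sets Chaf1b was not called by limma (adjusted p = 0.103). A further 12 members of this list were not analysed here. Of 21 Polycomb and DNA methylation enzymes 2 rose (9.52%, against 1.50% of all genes). Both act in maintenance methylation: Uhrf1 rose by 0.75 ± 0.10 and Dnmt1 by 0.57 ± 0.10. The histone count was 1 without 6 h array 2 and 0 without any other of the 4 arrays, and both methylation genes lost their call whichever of the 4 arrays was left out (adjusted p 0.0560 to 0.107 for Uhrf1 and 0.0975 to 0.242 for Dnmt1).

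**Figure D3:**
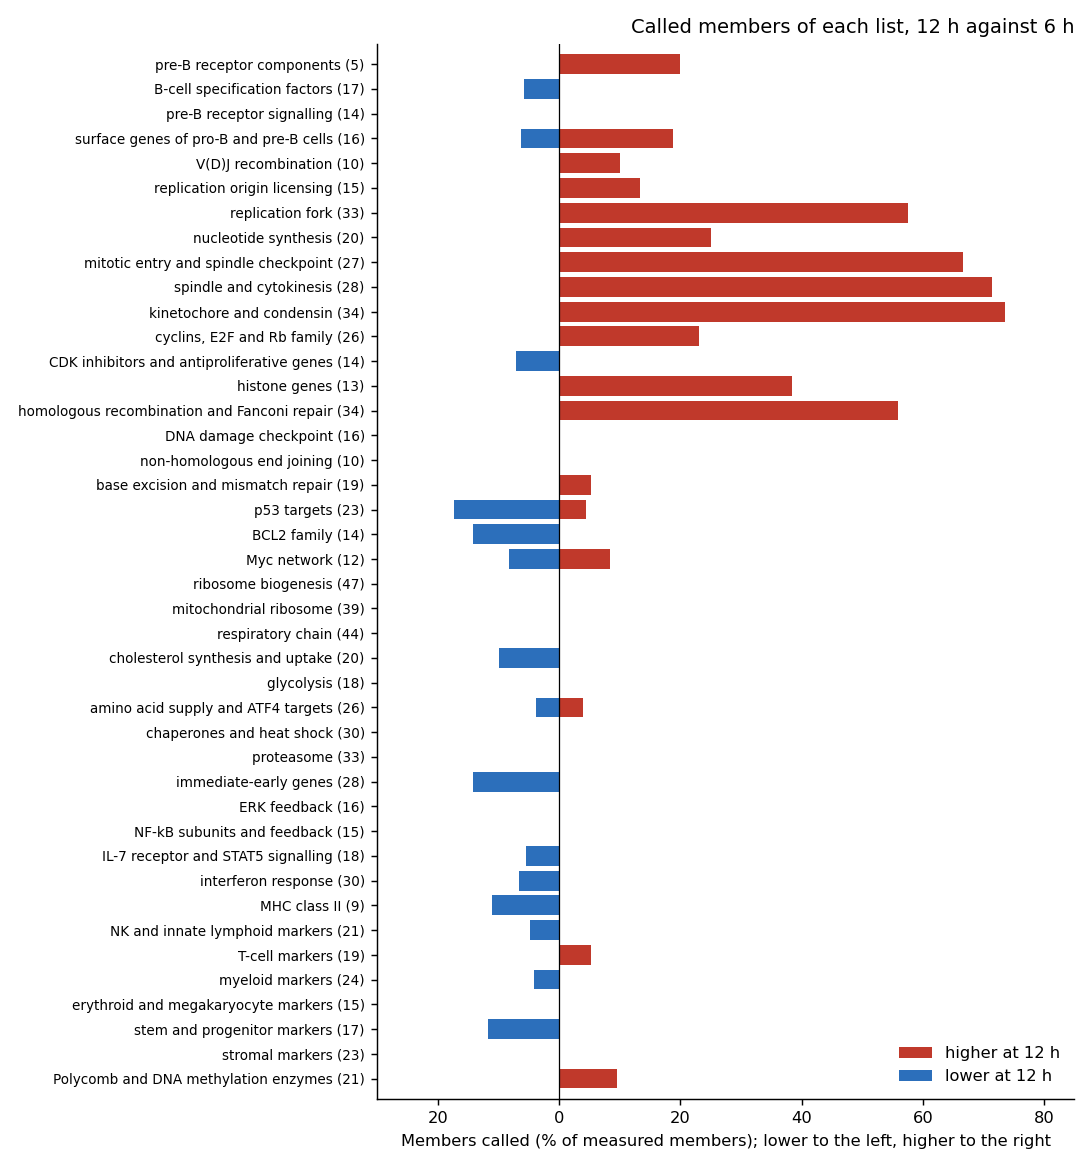
Bars give the percent of each list's measured members (number in brackets) called higher at 12 h (red, right) or lower (blue, left). The 3 mitotic lists, the replication fork and homologous recombination each have more than 50% of members called higher, whereas in no list does the share called lower reach 20%.

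Of the 5 pre-B receptor components measured, Igll1 alone was called. This lambda5 part of the surrogate light chain was at -0.57 and -0.47 at 6 h and at 0.56 and 0.47 at 12 h, a 2.05-fold rise (1.04 ± 0.09, adjusted p = 0.00211). Its arrays did not overlap, and the call held whichever of the 4 arrays was left out. It had changed by 0.74 before 6 h and rose by 1.81 after 12 h. Of its 2 probe sets only this one was called. The other changed by 0.03 ± 0.19.

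Its partner Vpreb1 was at -0.22 and -0.13 at 6 h and at 0.13 and 0.38 at 12 h. The arrays did not overlap, but the change of 0.43 ± 0.12 was not called (adjusted p = 0.126). The signalling chains Cd79a (-0.22 ± 0.15, adjusted p = 0.528) and Cd79b (-0.45 ± 0.13, adjusted p = 0.14) were not called, nor was Vpreb3 (-0.12 ± 0.15, adjusted p = 0.748). Cd79b went from 0.10 and 0.11 to -0.30 and -0.39. It was called lower by limma under quantile normalisation (adjusted p = 0.0218), which widened its change to -0.62. In the next step Vpreb1, Cd79a and Cd79b were called higher, at 0.65, 0.75 and 0.88. Igll1 was called in both steps. Limma called no difference between the change after 12 h and that before it for any of the 5 components, with adjusted p of the difference from 0.0643 for Cd79b to 0.912 for Vpreb3. The EBF palindrome (TCCC, any 2 bases, GGGA, both strands) and the 3 other motifs were found in none of the 4 promoters matched to these genes. The palindrome was in 0.904% of all promoters and 1.06% of those of all genes tested. No match says only that these letters are not in that window.

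Of 17 factors that specify the lineage 1 was called lower and none higher. At an unadjusted p under 0.05 in limma's fit 6 were lower and 1 higher, where 1828 of all 18194 genes were lower and 1187 higher, and 12 of the 17 changes were below 0, with a median of -0.12. Ebf1 itself was at 0.06 and 0.10 at 6 h and at -0.16 and -0.13 at 12 h (-0.22 ± 0.08, adjusted p = 0.241), and none of its 5 probe sets was called. Whether these probe sets read the transcript of the vector, that of the disrupted gene or both could not be told from the values. Pax5, the factor that commits cells to the lineage, changed by -0.03 ± 0.13 (adjusted p = 0.951), with overlapping arrays. Foxo1, a partner of Ebf1, changed by 0.28 ± 0.10 (adjusted p = 0.211), and was called higher in the next step, at 0.69, with no difference called between the steps (adjusted p = 0.314). The factor called was Irf8, also a factor of myeloid and dendritic cells, which fell from 0.32 and 0.42 to -0.32 and -0.35 (-0.71 ± 0.11, adjusted p = 0.0194) in both probe sets. It had changed by -1.02 in the step before and fell again by 0.59 in the next. Its call was lost whichever of the 4 arrays was left out (adjusted p 0.0957 to 0.146).

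Of 16 genes for surface proteins of pro-B to pre-B stages 3 rose (18.8%, against 1.50% of all genes) and 1 fell (6.25%, against 0.890%). Cd24a, heat-stable antigen, went from -0.46 and -0.35 to 0.09 and 0.34 (0.61 ± 0.11, adjusted p = 0.0318) in 2 of 3 probe sets. Its next step was larger, at 1.66, though the difference between the steps was not called (adjusted p = 0.0762). Cd72, a B-cell coreceptor, rose by 0.56 ± 0.09 and Ly6d, a marker of B-primed lymphoid progenitors, by 0.46 ± 0.09, while the tetraspanin Cd9 fell by 0.70. These 4 calls were lost whichever of the 4 arrays was left out. The range of adjusted p over the 4 fits was 0.0738 to 0.202 for Cd24a, 0.0709 to 0.171 for Cd72, 0.129 to 0.235 for Ly6d and 0.0591 to 0.109 for Cd9. With the spread of those 4 arrays alone the 3 rises were not called either (adjusted p 0.0872, 0.0762 and 0.0944). Of 14 genes of pre-B receptor signalling limma called none. At an unadjusted p under 0.05, Syk (0.39 ± 0.12) and Blk (0.36 ± 0.10) were higher, and Pik3ap1 (-0.36 ± 0.10) and Dok3 (-0.33 ± 0.12) lower.

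The recombination genes Rag1 (0.12 ± 0.11, adjusted p = 0.639), Rag2 (0.33 ± 0.11, adjusted p = 0.214) and Dntt (-0.33 ± 0.14, adjusted p = 0.276) were not called. All 3 had been higher at 0 h, with changes of -1.36, -1.01 and -3.02 up to 6 h. The call on the V(D)J list was Hmgb2, a DNA-bending protein that also rises with proliferation, at 1.06 ± 0.13 (adjusted p = 0.00746). It was lost without 6 h array 2 (adjusted p = 0.0628) and 12 h array 2 (0.0664). Il7r, the interleukin-7 receptor chain, changed by -0.05 ± 0.16 (adjusted p = 0.921) and Myc by -0.00 ± 0.10 (adjusted p = 0.994). On the Myc network list, the antagonist Mxd3 rose by 1.06 ± 0.17 in 1 of 3 probe sets and its relative Mxd4 fell by 0.56 in 1 of 4. Mxd4 lost its call whichever of the 4 arrays was left out (adjusted p 0.116 to 0.158), and Mxd3 lost it without any array other than 6 h array 1 (0.0950 to 0.174).

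**Figure D4:**
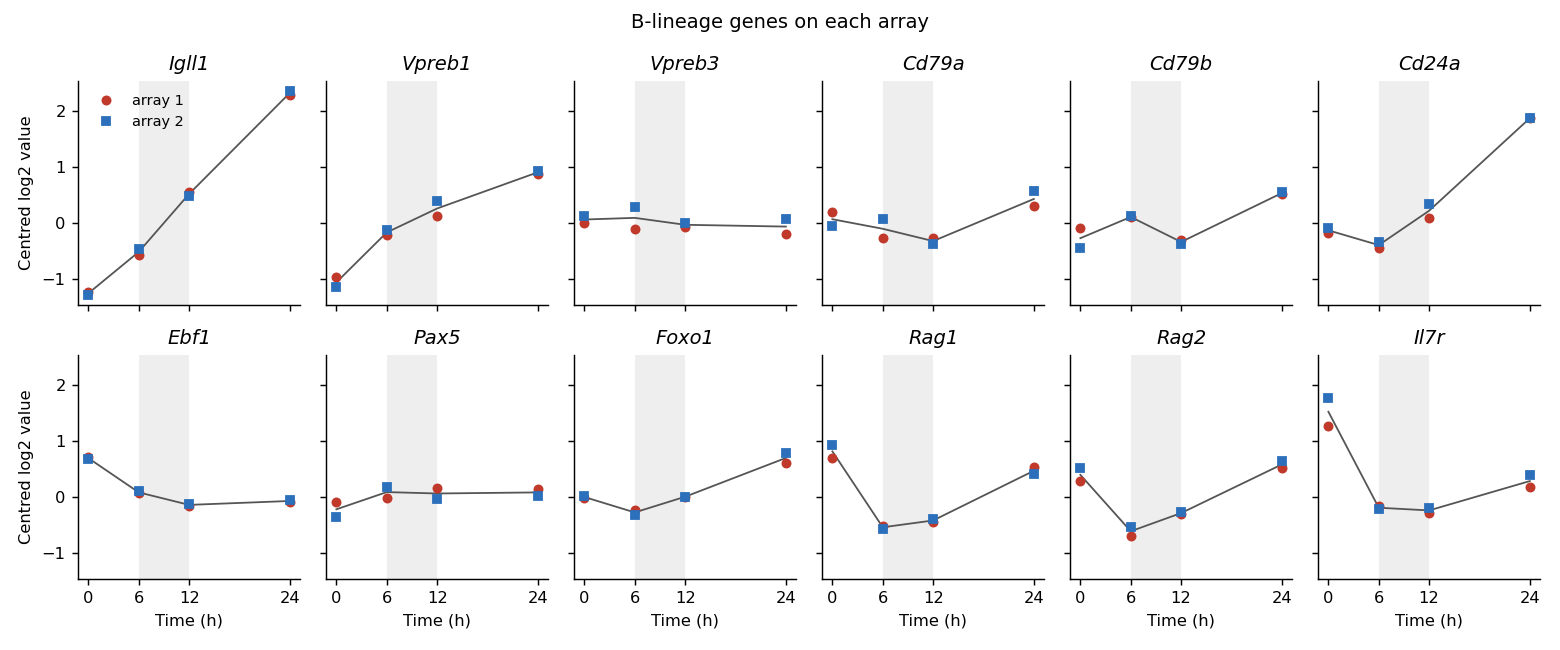
Each panel plots the centred log2 value of a B-lineage gene on each of the 8 arrays (red circles array 1, blue squares array 2) against hours of tamoxifen, with the interval from 6 h to 12 h shaded and 1 y scale for all panels. Igll1 climbs in each interval, whereas Cd24a, Cd79a, Cd79b and Foxo1 have their highest values at 24 h and Ebf1, Rag1 and Il7r at 0 h.

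The largest decrease was in Ccl3, a chemokine of activated myeloid and lymphoid cells. It was at 0.97 and 0.95 at 6 h and at -0.95 and -1.03 at 12 h, and fell 3.87-fold (-1.95 ± 0.09, adjusted p = 0.000976). It also changed by -2.05 in the step before and by -1.38 in the step after. P2ry12, an ADP receptor, fell from 0.94 and 0.75 to -0.64 and -0.61 (-1.47 ± 0.12, adjusted p = 0.00208), and changed by -1.14 in the next step. Its relative Gpr34, a lysophospholipid receptor, fell by 1.32. Ctla2a, a protease inhibitor transcribed in progenitors, went from 1.21 and 1.00 to -0.47 and -0.39 (-1.54 ± 0.16, adjusted p = 0.00355). Ccl3, P2ry12 and Ctla2a each kept the call whichever of the 4 arrays was left out, and Gpr34 lost it without 12 h array 1 (adjusted p = 0.0534) and array 2 (0.0629).

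Some of the largest decreases followed a rise before 6 h. Hbb-y, an embryonic globin, was at 1.77 and 1.29 at 6 h and at 0.16 and 0.10 at 12 h (-1.40 ± 0.17, adjusted p = 0.00635), after a change of 1.89 in the first step. Only 1 of its 3 probe sets was called, and the others changed by -0.315 ± 0.157 and -0.047 ± 0.148. Whether the called probe set also reads other globin transcripts was not tested. Csrp2, a muscle-type LIM protein, went from 1.49 and 1.11 to 0.00 and -0.14 (-1.37 ± 0.20) after a change of 1.41. Cdh17, a cadherin, went from 1.25 and 1.47 to -0.01 and 0.31 (-1.21 ± 0.13) after 1.63. Hbb-y lost its call without 12 h array 1 (adjusted p = 0.0624) and array 2 (0.0763), and Csrp2 without those (0.105 and 0.128) and without 6 h array 1 (0.106). Cdh17 and also Itih5, a hyaluronan-binding protein (-1.26 ± 0.11), and AA467197 (-1.36 ± 0.15) kept theirs in all 4 fits.

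Other decreases of the 15 largest were in Maf, Nectin3, Arrdc4 and Gbp8. Maf, a transcription factor, fell by 1.14 in 1 of 6 probe sets, and Nectin3, an adhesion molecule, by 1.06 in 1 of 6. Arrdc4, an arrestin-domain protein, fell by 1.05 and Gbp8, an interferon-inducible GTPase, by 1.02. Maf (adjusted p 0.103 to 0.270) and Arrdc4 (0.0534 to 0.111) lost their calls whichever of the 4 arrays was left out. Nectin3 lost it when an array other than 6 h array 2 was left out (0.157 to 0.200), and Gbp8 when one other than 6 h array 1 was (0.0540 to 0.0708). With the mean of all probe sets, Maf (0.231) and Nectin3 (0.0898) were not called.

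**Figure D5:**
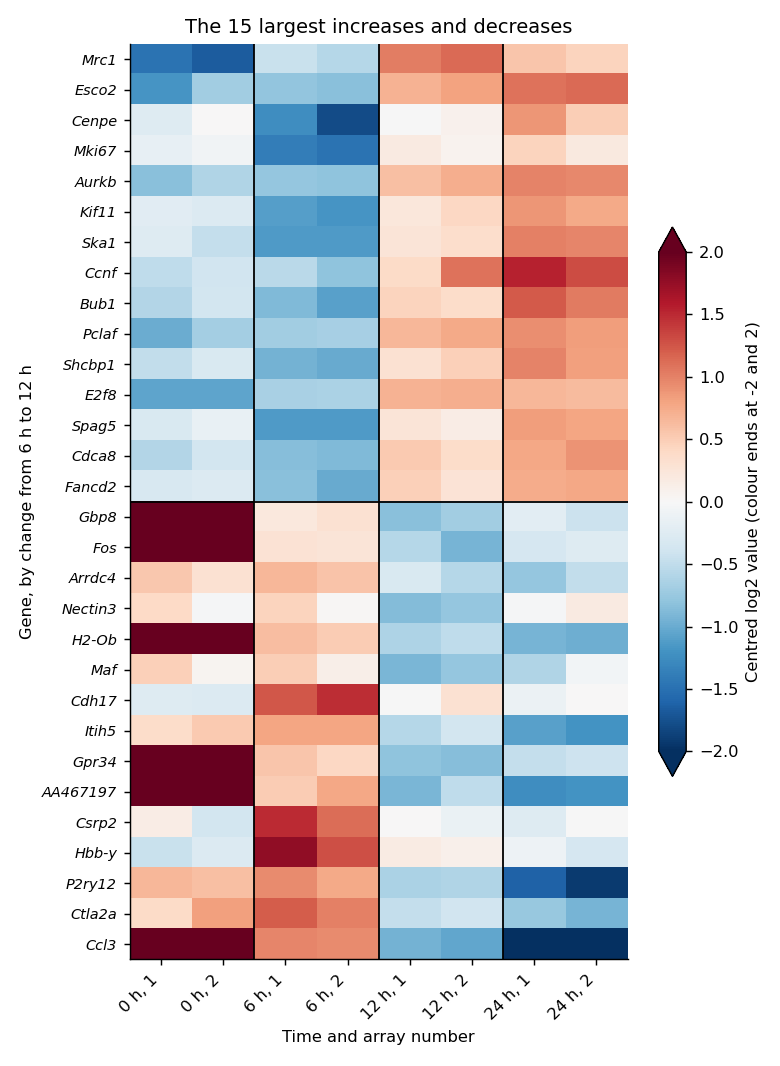
The heat map shows the centred log2 value (colour, blue low, red high, ending at -2 and 2) of the 15 largest increases and 15 largest decreases among called genes (rows) on each array (columns, by hour and array number). Most of the rising genes turn from blue at 6 h to red at 12 h, and the falling genes split into those highest at 0 h, such as Fos and Gbp8, and those highest at 6 h, such as Hbb-y and Csrp2.

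The cultures grew on stromal cells, whose markers were read as well. None of 23 stromal markers was called by limma, while 21 changes were below 0, as were 9432 of all 18194. At an unadjusted p under 0.05 in that fit 9 were lower and 0 higher, where 1828 of all genes were lower. The median was -0.57. The mean of the list was 0.53 and 0.21 on the 6 h arrays and -0.06 and -0.22 on the 12 h arrays, within a range from 0.95 at 0 h to -0.44 at 24 h. Lox, a collagen cross-linking enzyme, changed by -1.09 ± 0.27 (adjusted p = 0.0994), Timp3, an inhibitor of matrix proteases, by -0.95 ± 0.20 (adjusted p = 0.0618) and the collagen gene Col1a2 by -0.81 ± 0.28 (adjusted p = 0.211). The part of these values in the decreases reported here was not tested.

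Immediate-early genes answer growth factor and stress signals within minutes. Of 28 measured members 4 fell (14.3%, against 0.890% of all genes), none rose and 24 were not called. At an unadjusted p under 0.05 in limma's fit 1 was higher and 10 lower, where 1828 of all 18194 genes were lower. The median was -0.15. Fos, a subunit of AP-1, was at 0.30 and 0.26 at 6 h and at -0.58 and -0.93 at 12 h (-1.03 ± 0.13, adjusted p = 0.00828). Its partner Jun went from 0.29 and 0.18 to -0.44 and -0.53 (-0.72 ± 0.12, adjusted p = 0.0242). Btg2, an antiproliferative gene, fell by 0.66 and Klf2, a quiescence factor of lymphocytes, by 0.51. The step before was larger for each, with changes of -6.42 for Fos, -3.32 for Jun, -3.01 for Btg2 and -2.91 for Klf2. Fos kept its call without 12 h array 1 (adjusted p = 0.0303) and lost it when another of the 4 arrays was left out (0.0582 to 0.0727). Jun (0.0976 to 0.179), Btg2 (0.0709 to 0.125) and Klf2 (0.146 to 0.235) lost theirs whichever of the 4 arrays was left out. Jun was not called with the mean of its 2 probe sets (0.0627).

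Among 23 targets of the tumour suppressor p53, 4 fell (17.4%, against 0.890% of all genes) and 1 rose. At an unadjusted p under 0.05 in limma's fit 10 were lower, where 1828 of all 18194 genes were. The median was -0.33. Trp53inp1, a stress-induced cofactor of p53, went from -0.07 and -0.21 to -0.87 and -0.91 (-0.75 ± 0.09, adjusted p = 0.00715), in 1 of 2 probe sets. The other changed by -0.14. Rrm2b, the p53-induced ribonucleotide reductase subunit, fell by 0.75, Sesn1, a sestrin that restrains mTORC1, by 0.66 and Zmat3, an RNA-binding protein, by 0.56. The member that rose was Gtse1 (0.68 ± 0.11), a G2 and S phase protein that restrains p53. Trp53inp1, Rrm2b and Gtse1 lost their calls when an array other than 6 h array 2 was left out (adjusted p 0.0673 to 0.0835, 0.0959 to 0.124 and 0.111 to 0.164), and Sesn1 (0.0744 to 0.107) and Zmat3 (0.167 to 0.256) lost theirs whichever of the 4 arrays was left out. With the mean of its probe sets neither Rrm2b (0.135) nor Sesn1 (0.148) was called. Cdkn1a, the p21 inhibitor, was not called (-0.33 ± 0.09, adjusted p = 0.146).

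In the BCL2 family, which sets the threshold for apoptosis, 2 of 14 fell (14.3%, against 0.890% of all genes). Both are death-promoting BH3-only genes. Bmf went from 0.18 and 0.14 to -0.62 and -0.70 (-0.82 ± 0.12, adjusted p = 0.018), in 1 of 3 probe sets, and was not called with their mean (adjusted p = 0.519). Bcl2l11, which encodes Bim, went from 0.13 and 0.18 to -0.49 and -0.41 (-0.61 ± 0.09, adjusted p = 0.0147), in 3 of 5. Both calls were lost whichever of the 4 arrays was left out (0.0969 to 0.146 and 0.0902 to 0.141). Both had changed in the same direction in the step before, by -1.62 and -1.03, and Pmaip1, another such gene, was at -0.66 ± 0.14 without passing the test (adjusted p = 0.0612).

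Markers of other blood lineages held few calls. Klrd1, an NK receptor chain also known as CD94, fell from 0.47 and 0.52 to -0.53 and -0.47 (-0.99 ± 0.10, adjusted p = 0.00314), and kept its call whichever of the 4 arrays was left out. It was the only one of 21 NK and innate lymphoid markers to be called. At an unadjusted p under 0.05 in limma's fit 8 were lower and none higher, where 1828 of all 18194 genes were lower. Fcgr3, a low-affinity IgG receptor, fell by 0.75 as the only call among 24 myeloid markers. Of 17 stem and progenitor markers Ctla2a and Mn1, a transcription cofactor (-0.74 ± 0.10), fell. Thy1, a T-cell marker, rose by 0.54 ± 0.10 as the only call among 19. Limma called none of 15 erythroid and megakaryocyte markers, with 3 higher and 2 lower at an unadjusted p under 0.05. Over these 5 lists, the stromal list and the MHC class II list described next, 128 genes in all, 91 changes were below 0. Of the 128, 5 were called lower and 1 higher, and the median was -0.18. Among all 18194 genes 9432 changes were below 0 and 0.890% were called lower.

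Of these calls Fcgr3 held only without 6 h array 1 (adjusted p 0.0637 to 0.102 otherwise), and Mn1 (0.0690 to 0.120) and Thy1 (0.120 to 0.216) held in none of the 4 fits. H2-Ob, which encodes a chain of the peptide-loading modulator H2-O of B cells, fell from 0.61 and 0.51 to -0.62 and -0.51 (-1.13 ± 0.12, adjusted p = 0.0044). It was the only call among 9 MHC class II genes, was lost without 12 h array 1 (0.0534), and followed a change of -2.13 before 6 h. Of 30 interferon response genes 2 fell (6.67%, against 0.890% of all genes), Ifi27l2a by 0.71 and Trim30a by 0.46. At an unadjusted p under 0.05 in limma's fit 3 of the 30 were higher and 7 lower. Of all 18194 genes 1187 were higher and 1828 lower at that p. On the list of interleukin-7 and STAT5 signalling Crlf2, the thymic stromal lymphopoietin receptor, fell by 0.44. Calls for these 3 genes were lost whichever of the 4 arrays was left out (adjusted p 0.0581 to 0.107, 0.162 to 0.248 and 0.162 to 0.255).

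Metabolic and housekeeping lists held few calls in this step. In cholesterol synthesis 2 of 20 genes fell (10.0%, against 0.890% of all genes), Mvd by 0.48 and Pmvk by 0.48, both of the mevalonate pathway. At an unadjusted p under 0.05 in limma's fit 10 were lower and none higher, where 1828 of all 18194 genes were lower. The median was -0.28. Of the 20 changes 18 were below 0, as were 9432 of all 18194. Both calls were lost whichever of the 4 arrays was left out (adjusted p 0.146 to 0.249 and 0.147 to 0.201). Among 26 genes of amino acid supply and ATF4 targets, Bcat1, which starts the breakdown of branched-chain amino acids, rose by 0.69 ± 0.12 in 1 of 3 probe sets. It had changed by 3.17 before 6 h. Ddit4, an inhibitor of mTORC1, fell by 0.64. These calls too were lost whichever of the 4 arrays was left out (0.136 to 0.194 and 0.0888 to 0.227). Limma called none of 47 ribosome biogenesis genes (8 higher, 0 lower at an unadjusted p under 0.05, where 1187 of all 18194 genes were higher). Their median was 0.11 here after 1.74 in the step before and was -0.37 in the step after. Limma also called none of 39 genes of the mitochondrial ribosome (4 higher, 0 lower), of 44 of the respiratory chain (0 and 1), of 18 of glycolysis (1 and 1), of 30 chaperones (1 and 1) or of 33 proteasome subunits (1 and 0). The same held for 16 ERK feedback genes (2 and 0) and 15 NF-kB subunits and feedback genes (0 and 4).

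On none of the lists were 142 of the genes called higher and most of those called lower. Mrc1, the mannose receptor of macrophages, had the largest rise of all, from -0.44 and -0.57 to 1.03 and 1.13 (1.58 ± 0.11, adjusted p = 0.00162), followed by a change of -0.59. Esco2, which acetylates cohesin in S phase, rose by 1.57 ± 0.15, Pclaf, a PCNA-binding protein, by 1.39 ± 0.12 and Shcbp1 by 1.37 ± 0.11. The genes that follow were chosen after their values were seen. Hes1, a repressor downstream of Notch, rose by 0.64 ± 0.11, Vegfa by 0.64 ± 0.11 and Jchain, the joining chain of secreted antibody, by 0.56 ± 0.10. Among decreases off the lists, Pik3ip1, an inhibitor of PI3 kinase, went from 0.20 and 0.26 to -0.53 and -0.44 (-0.72 ± 0.09, adjusted p = 0.00728). Hbp1, a repressor with an HMG box, fell by 0.77, Fbxo32, a subunit of a ubiquitin ligase, by 0.65 and Txnip, which limits glucose uptake, by 0.57. Mrc1, Esco2, Pclaf and Shcbp1 stayed called whichever of the 4 arrays was left out. The calls of Hes1, Vegfa, Jchain, Pik3ip1, Hbp1, Fbxo32 and Txnip were lost in each of those fits, with adjusted p-values from 0.0529 to 0.0859 for Pik3ip1 and from 0.0893 to 0.275 for the others.

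For a few genes the change after 12 h differed from the change before it, by a test of the difference in limma: 31 of all genes were called (0.170%). The intervals differ in length, so changes and not rates per hour are compared. Of the genes named above, Mrc1 (1.58, then -0.59, adjusted p of the difference 0.0262) and E2f8 (1.36, then -0.06, adjusted p = 0.0315) rose before 12 h and not after. Mybl2, an activator of mitotic genes, did likewise (1.04, then -0.48, adjusted p = 0.0451), as did Fbxo5, an inhibitor of the anaphase-promoting complex (1.24, then 0.03, adjusted p = 0.0497). In the other direction Trp53inp1 (-0.75, then 0.96, adjusted p = 0.0315), Sesn1 (-0.66, then 0.50, adjusted p = 0.0497) and Btg2 (-0.66, then 0.59, adjusted p = 0.0497) fell before 12 h and were called higher after it. Ccnb2 was called only in the later step (0.31, then 1.59, adjusted p = 0.0451). Mybl2, Fbxo5 and Ccnb2 were picked after their values were seen.

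The same genes were also read in a separate set of arrays of the series. The pre-B line 230238 was transduced with Ebf1-Engrailed, a fusion of Ebf1 to a repressor domain, or with the empty vector, on 3 arrays each, and no array is shared with the time course. On the same probe sets, 959 genes were lower with Ebf1-Engrailed (5.27%) and 1251 were higher (6.88%). Of the 273 genes higher at 12 h, 196 were lower in the line (71.8%, and 20.4% of the 959) and 5 were higher (1.83%). Of the 162 genes lower at 12 h, 39 were higher in the line (24.1%, and 3.12% of the 1251) and 13 were lower (8.02%). Of the mitotic genes measured, 68 of 89 were lower in the line and none was higher. The proliferation genes Mki67 (-1.32) and Esco2 (-2.17), on none of the lists, were lower there as well, and the part of proliferation in this overlap was not tested. Igll1 differed by -4.14 in the line and Kif11 by -1.44. Ccl3, the largest decrease of the time course, differed by 6.41. Mrc1 went against this pattern, at 0.58 in the line, and Irf8 was lower in both (-0.87 in the line). This comparison was added after the data were seen.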

How the data were processed

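The authors deposited log2 values of 45101 probe sets from Affymetrix mouse arrays, for which the submitters' processing notes name RMA; the base of the logarithm was taken as log2. Over the 8 arrays of the time course the median of every probe set was 0, within 1e-05, so values had been centred and signal over background could not be read. The number of arrays limits the precision. Probe sets with 1 gene symbol (34958) were used, 34754 of them matched to the supplied gene list (GRCm38.p6) and 204 under the array's name; 932 had several symbols and 9211 none. Each of the 18194 genes was represented by its most variable probe set over the 8 arrays, which favours large differences, and 9012 genes had more than 1 probe set.

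Time was a factor with 4 levels in lmFit and eBayes of limma 3.58.1 (R 4.3.3; tables were read with version 1.17.8 of data.table), tested on simulated data, with two-sided Benjamini-Hochberg adjusted p-values over all genes. The 42 gene lists (984 entries, 71 not analysed here) and the members named were chosen with earlier results of these data known, so no list was tested as a set. Named were 15 genes always (1 is not reported here), the 15 largest increases and decreases whose arrays did not overlap, and up to 4 called members of each list; others are marked where named. Alternatives were the probe set rule, the arrays behind the spread, a replicate block, scaling, a variance filter, robust variances, and each array of 6 h and 12 h left out.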

Additional observations from a re-analysis of the deposited data

How the results depend on the processing

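No called gene was called in the opposite direction under any of the settings run. The count of 435 (273 higher, 162 lower) ranged from 92 to 153 when 1 array of 6 h or 12 h was left out, with 79 to 118 higher and 12 to 35 lower. It was 259 (170 and 89) with the spread from the 4 arrays of 6 h and 12 h, 1326 (644 and 682) after quantile normalisation and 106 (89 and 17) when a log2 change of at least 1 was required as well. In the more variable part of the genes 267 were lower. With the spread taken without 24 h array 2, a setting chosen after seeing the data, 265 genes were called (186 and 79). Subtracting array medians gave 289 and 157, robust variances 265 and 154, the mean of probe sets 350 and 236, and 1 row per probe set 322 and 220. With the replicate block 287 genes were called, 198 higher and 89 lower. Whether same-numbered arrays share a culture could not be told from the labels. The correlation of deviations between same-numbered arrays was -0.146 between 6 h and 12 h and ranged from -0.246 to 0.152 over all pairs of times. Only 2 numbers exist, so these correlations cannot decide it. Signs that turned were those of uncalled genes near 0. With 1 array of 6 h or 12 h left out, Pax5 ranged from -0.12 to 0.07, Vpreb3 from -0.32 to 0.07 and Myc from -0.07 to 0.07. Myc was at 0.01 with array medians subtracted and 0.02 after quantile normalisation. Of the 88 named genes that were called, 32 kept their call with each array of 6 h and 12 h left out. Calls among the 100 named genes were lost for 22 with the spread of the 4 arrays, 20 with the spread without 24 h array 2, 18 with the block, 8 with the mean of probe sets and 5 with the spread of the 6 arrays of 6, 12 and 24 h. Fits with 1 array at 6 h or 12 h have a larger SE by design. Other causes of these differences were not tested.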

Other observations

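The hybridisation control probe sets, which read added control transcripts and not RNA of the cells, differed between arrays. On 24 h array 2 the 18 of them lay between -10.7 and -4.12, with a median of -6.26, and on 12 h array 2 the median was 0.72. On the other 6 arrays their medians lay between -0.07 and 0.11. Their part in any change reported here was not tested, and the counts without 24 h array 2 are given with the other settings.

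The CCAAT box was in 72.2% of the 18 promoters matched to the called genes of homologous recombination and the Fanconi pathway, against 37.4% of all promoters, while the cell-cycle homology region was in 16.7% of them, against 19.2% of all promoters and 15.1% of those of all genes tested. Among the promoters of genes called higher that are on none of the lists, 35.2% held the homology region and 20.8% held both. Among those of genes called lower the shares were 15.5% and 8.05%.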
